A study of Homo sapiens with 6 samples.

Results

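The transcription factor ATF4, the stress factors ATF3 and DDIT3, and 7 genes known as their targets or partners (DDIT4, TRIB3, CHAC1, SESN2, ASNS, INHBE and PPP1R15A) were examined in drug-tolerant persisters (DTPs) of PC9 cells. They are 10 of the 19775 genes that the arrays measured. The genes were listed by name, and they were selected on the comparison of DTPs with parental cells in these same 6 arrays. Their differences between the groups are therefore a description: no p-value is given for them, and where they are counted as called lower, the count rests on the values that selected them. PC9 is a human non-small cell lung cancer line with an activating mutation of EGFR, and erlotinib inhibits the EGFR kinase.

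Both groups carried a GFP vector. The 3 DTP arrays read RNA of cells that were exposed to 2 µM erlotinib for 9 days, starting at 80% confluency, and harvested on day 10. The 3 parental arrays read RNA of cells given DMSO, which per the sample protocols were harvested at 100% confluency on day 3. The design text of the series, like the methods of the study, gives 9 days for both treatments, and which of these held for the parental arrays was not settled here. By the sample protocols the groups differ in harvest day as well as in drug, and no confluency at harvest is given for DTPs. The parts of drug, harvest day and confluency in the differences below cannot be told apart. DTPs are the cells that are left under drug, and with bulk RNA it cannot be told apart whether some cells outlived the others or cells altered their expression, nor fewer cells of a type from less RNA per cell. The labels do not say whether the 3 arrays of a group came from separate cultures, and the p-values reflect no more than the spread among these 6 arrays, which may be technical.

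ATF4 is the main effector of the integrated stress response. Kinases that sense amino acid shortage, unfolded protein in the endoplasmic reticulum, viral RNA or haem deficiency phosphorylate the translation initiation factor eIF2, which lowers general translation while the ATF4 messenger RNA is translated more. ATF4 then binds DNA as a dimer with C/EBP proteins and switches on genes of amino acid synthesis and uptake, further stress factors such as DDIT3 (CHOP) and ATF3, and brakes on the response itself such as TRIB3 and PPP1R15A. Since much of the control of ATF4 is at translation, its messenger RNA, the quantity measured here, is only part of its activity. Protein was not measured.

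Promoter sequences were matched from RefSeq (GRCh38.p14) for 9 of the 10 genes, as windows of 250 bases before to 50 bases after an annotated start, and INHBE had no match. The stretches below hold the matches of 3 motifs that were searched on both strands, and they are shown because the first and the second motif are known sites of ATF and C/EBP proteins and the third, the E-box, is a known site of bHLH factors. Capitals mark the matched letters, and positions are counted in bases, with negative numbers before the start. The start is that of the window that held the match. A further window of ATF3 (chr1:212614768-212615067) and of ASNS (chr7:97872116-97872415), at another annotated start, held no match. TGATGNAA, the core of the composite element bound by ATF4 with C/EBP proteins, was found in ATF3 (chr1:212565205-212565234, plus strand, -191 to -184 from the start), in CHAC1 (chr15:40953251-40953280, plus strand, -209 to -202 from the start, with the motif on the opposite strand) and in ASNS (chr7:97872458-97872487, minus strand, -68 to -61 from the start). TGACGTCA, the ATF/CRE palindrome, was found in PPP1R15A (chr19:48872352-48872381, plus strand, -58 to -51 from the start). CACGTG, the E-box, was found in ATF4 itself (chr22:39520466-39520493, plus strand, -82 to -77 from the start).
ATF3: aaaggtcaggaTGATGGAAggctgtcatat
CHAC1: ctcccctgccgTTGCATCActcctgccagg
ASNS: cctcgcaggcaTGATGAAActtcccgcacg
PPP1R15A: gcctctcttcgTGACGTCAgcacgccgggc
ATF4: gaggagacggtCACGTGgtcgcggcgga
Among all 35116 promoter windows, TGATGNAA occurred in 3.62%, TGACGTCA in 1.85% and CACGTG in 7.26%. By gene, these motifs occurred in 3, 1 and 1 of the 9 matched members and in 4.46%, 2.25% and 8.78% of 27305 genes. Among the 15384 of these genes that the arrays measured, the shares were 3.61%, 3.10% and 10.9%. The windows of DDIT3, DDIT4, TRIB3 and SESN2 held none of the 3 motifs. A match is a description of the letters in this window and not of binding.

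All 10 genes had less signal in DTPs. Values are log2 probe set summaries made by robust multi-array averaging (RMA), on which a difference of 1 is a 2-fold difference, and a gene was called where limma's adjusted p was under 0.05 and the fold over 1.5. By this rule 10 of 10 members were called lower and 0 higher, and of all 19775 genes 6.13% were called lower. The choice of the members fixed that count. The members' differences (DTP minus parental) lay between -4.94 and -1.03, with a median of -1.97, against a median of -0.05 over all genes. All 10 were over 2-fold lower, and 5 (INHBE, SESN2, TRIB3, ASNS and CHAC1) were over 4-fold lower, a size that 83 of all genes called lower had. In each of the 10 genes the 3 DTP arrays lay below the 3 parental arrays, which held for 29.8% of all genes.

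**Figure D1:**
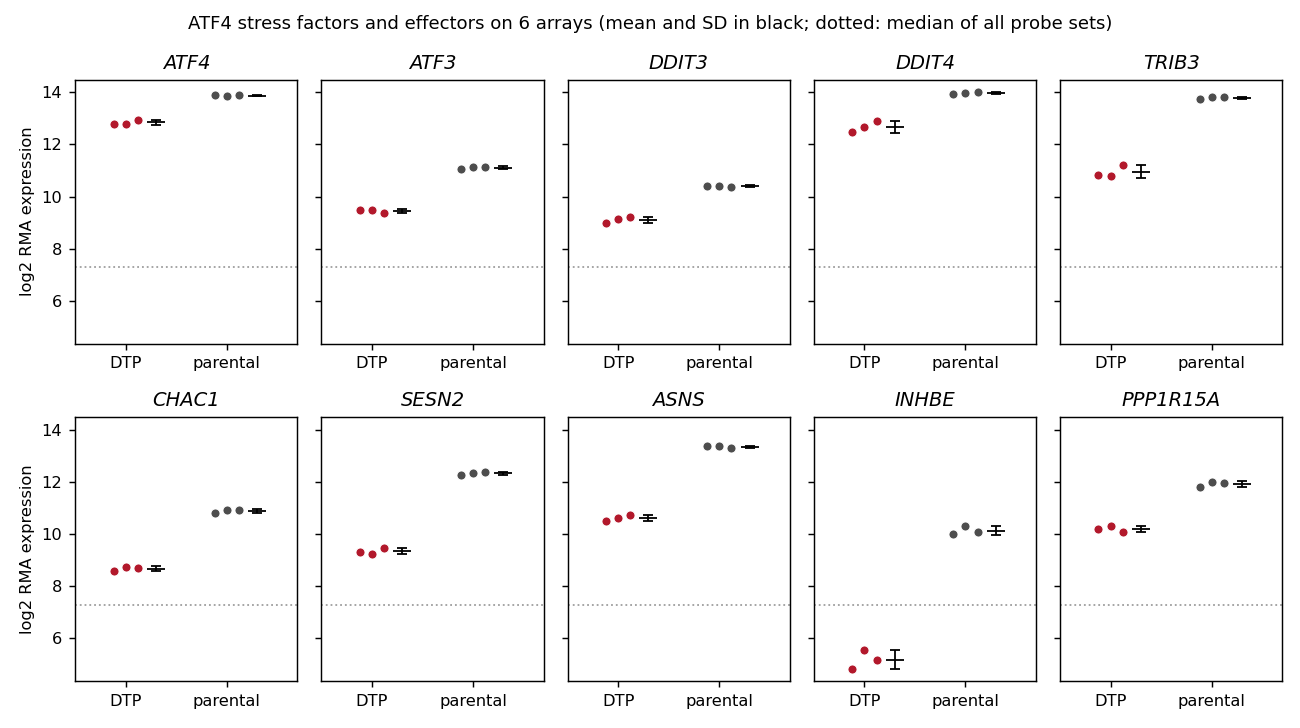
Log2 RMA expression (y axis) of each of the 10 genes on every array, with DTP arrays in red on the left and parental arrays in grey on the right of each panel. Black marks give each group's mean with its SD (n = 3), the dotted line is the median of all probe sets (7.29), and the groups do not overlap in any panel.

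The 3 transcription factors were 2.04-fold to 3.16-fold lower. ATF4 measured 12.79, 12.79 and 12.93 in DTPs, against 13.88, 13.84 and 13.89 in parental cells. The groups were 0.91 apart at their nearest arrays, and ATF4 was 2.04-fold lower in DTPs (log2 difference -1.03 ± 0.07 SE, n = 3 per group), the smallest difference among the 10 genes. ATF3, a factor of the same bZIP class that is induced by many stresses, measured 9.47, 9.50 and 9.36 in DTPs, against 11.04, 11.13 and 11.14 in parental cells. All DTP arrays were lower, by 3.16-fold on average (-1.66 ± 0.07). DDIT3 encodes CHOP, a C/EBP-related factor linked to death under prolonged stress of the endoplasmic reticulum. Its values were 8.99, 9.14 and 9.21 in DTPs and 10.42, 10.41 and 10.37 in parental cells. DDIT3 was 2.44-fold lower in DTPs with no overlap between the groups (-1.29 ± 0.07).

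DDIT4 and SESN2 both restrain mTORC1, the kinase complex that couples growth to nutrients. DDIT4 (REDD1) acts through the TSC complex, and SESN2 is a leucine sensor that acts through GATOR2. DDIT4 measured 12.46, 12.68 and 12.90 in DTPs, against 13.95, 13.97 and 14.02 in parental cells, a 2.46-fold lower level (-1.30 ± 0.10). The DTP arrays were spread more widely (SD 0.22) than the parental ones (SD 0.04), but the highest of them was still below the lowest parental array. SESN2 measured 9.31, 9.24 and 9.48 in DTPs, against 12.25, 12.35 and 12.38 in parental cells. It was 7.90-fold lower (-2.98 ± 0.08), the second largest difference of the 10 genes.

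TRIB3 and PPP1R15A feed back on the response. TRIB3 encodes a pseudokinase that binds and restrains ATF4 and DDIT3, and PPP1R15A (GADD34) is the inducible subunit that brings protein phosphatase 1 to eIF2. TRIB3 measured 10.84, 10.80 and 11.23 in DTPs, against 13.74, 13.82 and 13.82 in parental cells. The third DTP array was the highest of its group, all 3 were far below the parental arrays, and the gene was 7.15-fold lower (-2.84 ± 0.10). PPP1R15A measured 10.20, 10.29 and 10.06 in DTPs, against 11.80, 12.00 and 11.94 in parental cells, and was 3.31-fold lower without overlap (-1.73 ± 0.08).

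Among the genes of metabolism, ASNS encodes asparagine synthetase and CHAC1 a gamma-glutamyl cyclotransferase that degrades glutathione. ASNS measured 10.48, 10.62 and 10.71 in DTPs, against 13.36, 13.36 and 13.28 in parental cells. It was 6.63-fold lower (-2.73 ± 0.07), with a gap between the groups many times wider than the spread within either. CHAC1 measured 8.58, 8.75 and 8.69 in DTPs, against 10.81, 10.93 and 10.93 in parental cells. It was 4.64-fold lower (-2.22 ± 0.07), again without overlap.

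INHBE, which encodes the subunit of the secreted factor activin E and is known as a stress-responsive gene, stood apart. It measured 4.84, 5.55 and 5.15 in DTPs, against 10.00, 10.31 and 10.06 in parental cells. The DTP mean of 5.18 ± 0.35 was below the median of all probe sets and the parental mean of 10.12 ± 0.16 was above it (SD, n = 3 each). The difference of -4.94 ± 0.14, 30.7-fold lower in DTPs, was the lowest of all 19775 genes. RMA gives no detection call, so whether any INHBE signal was left in DTPs is not known from these values, and a fold against so dim a probe set may understate the change.

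In rank among the 19775 genes, from the lowest difference up, SESN2 was at 20, TRIB3 at 29, ASNS at 34 and CHAC1 at 62. PPP1R15A followed at 122 and ATF3 at 134, then DDIT4 at 243, DDIT3 at 251 and ATF4 at 406. The 3 transcription factors had differences of 2.04-fold to 3.16-fold with a median log2 difference of -1.29, and the other 7 genes had 2.46-fold to 30.7-fold with a median of -2.73. Within the groups the members' log2 values had a median SD of 0.09, as had all genes. The SD was larger in DTP than in parental arrays for 10 of 10 members, and for 58.3% of all genes. Averaged over the 10 genes, the DTP arrays stood at -2.38, -2.24 and -2.20 relative to the parental mean, and the parental arrays at -0.05, 0.04 and 0.01. The first DTP array was the lowest of its group for 6 genes and the highest for 0, and the third was the highest for 6.

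The 10 genes were read by 16 probe sets, 1 each for ATF4, DDIT3, DDIT4, CHAC1 and INHBE. Of the 16, 14 were called lower, 0 higher and 2 neither, where 4.93% of all 54613 probe sets were called lower. The second probe sets of TRIB3, SESN2 and PPP1R15A gave differences like those above, with -3.31 ± 0.09, -3.00 ± 0.10 and -1.82 ± 0.08. For ATF3 the second probe set gave -1.29 ± 0.08. The third measured 7.28, 7.26 and 7.01 in DTPs, against 7.18, 7.35 and 7.17 in parental cells. These groups overlapped (-0.05 ± 0.09), at a level near the median of all probe sets. The second ASNS probe set measured 4.23, 4.20 and 3.85 in DTPs, against 4.40, 4.40 and 4.35 in parental cells. It was not called (-0.29 ± 0.10), and both of its means were about 3 log2 units below the median of all probe sets. With the mean of all probe sets in place of the brightest one, ATF3 was at -1.0 and ASNS at -1.51, and both were still called lower.

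**Figure D2:**
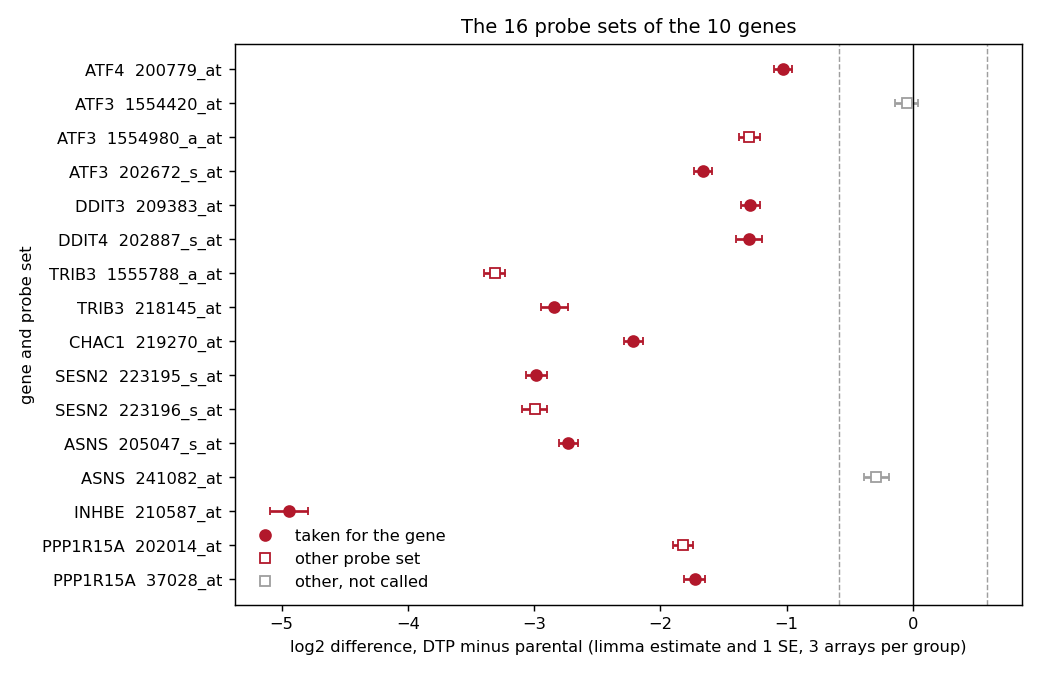
Log2 difference of DTP minus parental arrays (x axis, limma estimate with 1 SE, 3 arrays per group) for the 16 probe sets of the 10 genes (y axis). Circles are the probe sets taken for a gene, open squares the others, and dashed lines mark the 1.5-fold minimum. The 2 grey squares, 1 of ATF3 and 1 of ASNS, were not called, and the other 14 lie left of the line.

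Of genes outside the 10, those whose 6 values most resembled the members' mean profile were ANO1, CYP4F11, CBS, PCK2 and FAM241A. Likeness was the root mean square difference over the 6 arrays after each gene was centred on its own mean, so that it reflects the group difference above all. ANO1, a calcium-activated chloride channel, was nearest at 0.05 log2 units, followed by the cytochrome P450 CYP4F11 at 0.07. CBS, which makes cystathionine, stood at 0.08, and PCK2, the mitochondrial phosphoenolpyruvate carboxykinase, and FAM241A both stood at 0.09. Their log2 differences lay between -2.43 for PCK2 and -2.19 for CBS, and those of ANO1, CYP4F11 and FAM241A were -2.35, -2.25 and -2.40. FAM241A and CBS depended on the probe set, with a mean of -1.30 over both of FAM241A and of -1.76 over the 3 of CBS. Among the members CHAC1 was nearest to the mean profile at 0.04 and INHBE the farthest at 1.35.

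The rest of the pathway was described through 6 lists of other genes, 122 of whose 125 genes were measured. Of these, 49 were called lower, 10 higher and 63 neither, against 6.13% lower and 8.08% higher among all genes. By list, the median log2 difference was lowest for other ATF4 target genes at -1.06 (44 measured: 31 lower, 3 higher, 10 neither). It was -0.33 for eIF2, eIF2B and the eIF2 phosphatase (15: 3 lower, 0 higher, 12 neither) and -0.26 for bZIP partners and other stress factors (22: 9 lower, 2 higher, 11 neither). It was -0.04 for the eIF2 kinases and their activators (9: 0 lower, 0 higher, 9 neither) and 0.06 for TSC, GATOR and mTORC1 components (22: 3 lower, 2 higher, 17 neither).

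**Figure D3:**
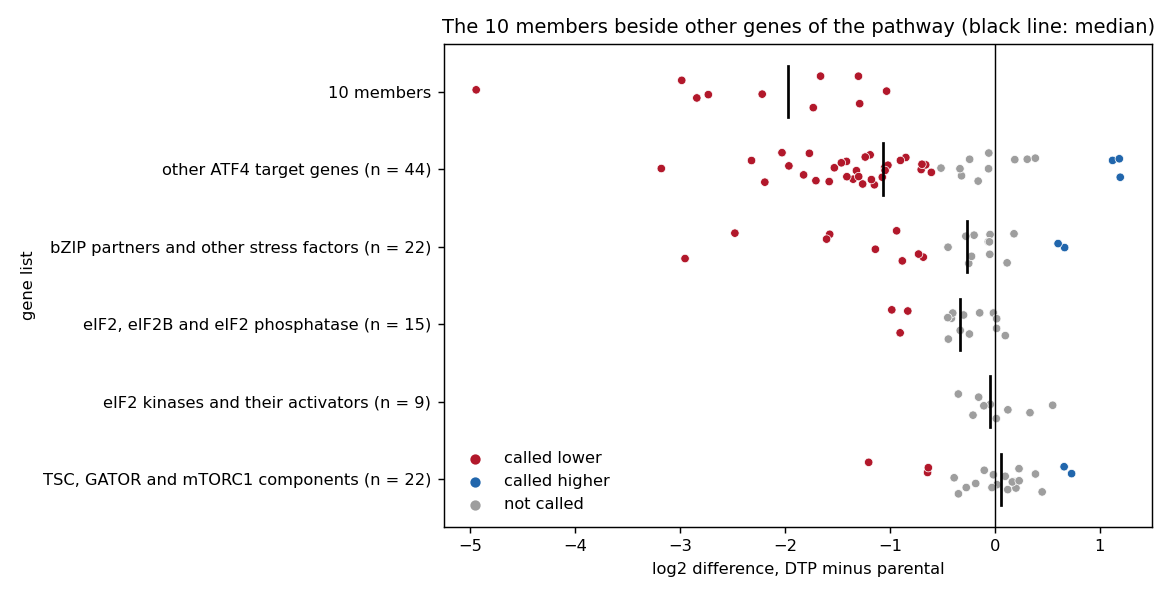
Log2 difference of DTP minus parental arrays (x axis) for the 10 members and for 5 lists of other pathway genes (y axis), 1 point per gene, red where called lower, blue where called higher and grey where not called. Black lines are medians, which run from -1.97 for the members to 0.06 for the TSC, GATOR and mTORC1 list.

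Of the other targets of ATF4, 31 were called lower in DTPs. CTH, which makes cysteine from cystathionine, measured 9.34, 9.77 and 9.78 in DTPs, against 12.75, 12.83 and 12.84 in parental cells, and was 9.04-fold lower (-3.18 ± 0.11, limma adjusted p = 1.5e-10). The neutral amino acid transporter SLC1A4 was 4.98-fold lower (-2.32 ± 0.10, limma adjusted p = 1.9e-09) with the brightest of its 5 probe sets, and -1.58 with their mean. CBS was 4.56-fold lower (limma adjusted p = 8.2e-10), with 2 of its 3 probe sets called and a mean of -1.76 over all 3. The glycine transporter SLC6A9 was 4.08-fold lower (limma adjusted p = 4.2e-09). The 3 targets called higher were NUPR1, HMOX1 and KLHL24, which are named after their values were seen. NUPR1, a small stress-induced chromatin protein, measured 9.06, 9.48 and 9.51 in DTPs, against 8.19, 8.16 and 8.33 in parental cells (1.12 ± 0.11, limma adjusted p = 2.9e-06). HMOX1, the haem-degrading oxygenase, was 2.28-fold higher (1.19 ± 0.10, limma adjusted p = 9.2e-07). KLHL24, a substrate adaptor of a ubiquitin ligase, was 2.29-fold higher (1.20 ± 0.09, limma adjusted p = 2.5e-07), a call that was lost with the mean of its 5 probe sets (0.46).

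Of the bZIP list, MAFF, a small MAF protein, was 7.73-fold lower (-2.95 ± 0.07, limma adjusted p = 8.6e-12) and the AP-1 subunit FOSL1 5.56-fold lower (-2.48 ± 0.08, limma adjusted p = 1.3e-10). XBP1, a factor of the unfolded protein response, was 3.04-fold lower (limma adjusted p = 8.8e-10) with 1 of its 2 probe sets and -0.95 with their mean. CEBPG, a dimer partner of ATF4, was 2.97-fold lower (-1.57 ± 0.09, limma adjusted p = 1.9e-08) and both of its probe sets were called. The genes called higher in this list were ATF5 and JUNB, an AP-1 subunit named after its values were seen (0.60 ± 0.07, limma adjusted p = 2.5e-05). JUNB was no longer called without the first parental array or without the second DTP array.

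Upstream of ATF4, none of the 9 eIF2 kinases and activators was called by limma or by the methods' t-test, and 5 had an unadjusted p below 0.05. EIF2AK2 (PKR), the kinase activated by double-stranded RNA, measured 10.80, 10.81 and 10.94 in DTPs, against 10.39, 10.23 and 10.29 in parental cells. This difference (0.55 ± 0.07, limma adjusted p = 4.0e-05) was under the 1.5-fold minimum. It passed without the first parental array (0.60), after either centring (each array set to the median of its ribosomal protein genes, or of its spike-ins) and after cyclic loess. The highest adjusted p of EIF2AK2 over all alternatives, by limma or the methods' t-test, was 0.20. None of the 3 EIF2AK2 probe sets was called, and they ran from 0.12 to 0.55 with a mean of 0.35. EIF2AK1, the haem-regulated kinase, differed by 0.34 ± 0.07 (limma adjusted p = 0.0019), and 1 of its 2 probe sets passed both thresholds. The other genes of this list with an unadjusted limma p below 0.05 were lower in DTPs. They were IMPACT (-0.35 ± 0.08), DELE1 (-0.21 ± 0.07) and OMA1 (-0.15 ± 0.07). The kinases EIF2AK3 and EIF2AK4 differed by 0.01 ± 0.06 and 0.12 ± 0.07. IMPACT, DELE1, OMA1, EIF2AK3 and EIF2AK4 are named after their values were seen. Of the eIF2 machinery, EIF2S2, the beta subunit of eIF2, was 1.97-fold lower (-0.98 ± 0.08, limma adjusted p = 5.3e-07), with -0.65 for the mean of both probe sets. EIF2B2, a subunit of its exchange factor, was 1.87-fold lower (limma adjusted p = 3.7e-06), and EIF2A, an alternative initiation factor, 1.78-fold lower (limma adjusted p = 1.8e-06).

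Of the 22 TSC, GATOR and mTORC1 components, 3 were called lower (13.6%), 2 higher and 17 neither. Among all genes 6.13% were called lower and 8.08% higher. DEPTOR, an inhibitory subunit of mTOR complexes, was 2.30-fold lower (-1.20 ± 0.08, limma adjusted p = 6.3e-08) with 1 of its 2 probe sets. RRAGB, a Rag GTPase, was 1.66-fold higher (0.73 ± 0.07, limma adjusted p = 3.0e-06) and TBC1D7, the small subunit of the TSC complex, 1.58-fold higher (0.66 ± 0.08, limma adjusted p = 1.5e-05). MIOS, a subunit of GATOR2, was 1.56-fold lower (-0.64 ± 0.07, limma adjusted p = 8.4e-06). TBC1D7 and MIOS were not called with the mean of their probe sets, nor was MIOS after either centring.

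Close relatives of the members were measured for 17 genes, of which 5 were called lower, 4 higher and 8 neither, with a median log2 difference of -0.22. Among all genes 6.13% were called lower and 8.08% higher. Some of these relatives also stand in the other lists, so the counts by list overlap. The total of 122 genes counts each gene once. In the inhibin family, genes were called higher while INHBE was lower. INHBA, the subunit of activin A, measured 13.16, 12.99 and 13.04 in DTPs, against 9.29, 9.05 and 9.17 in parental cells, and was 14.9-fold higher (3.89 ± 0.08, limma adjusted p = 3.5e-12) with all 3 probe sets called. INHA, the inhibin alpha subunit, was 2.03-fold higher (1.02 ± 0.17, limma adjusted p = 3.2e-04), a call lost with the methods' t-test (adjusted p = 0.058). INHBB differed by 0.52 ± 0.07 (limma adjusted p = 5.9e-05), which passed the 1.5-fold minimum after either centring, and INHBC by -0.20 ± 0.08 (limma adjusted p = 0.074).

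Both relatives of TRIB3 were lower in DTPs. TRIB2 was 4.83-fold lower (-2.27 ± 0.08, limma adjusted p = 4.1e-10) and TRIB1 2.10-fold lower (-1.07 ± 0.07, limma adjusted p = 1.2e-07). Both are pseudokinases as well. For TRIB1, 2 of its 3 probe sets were called, and the mean of all 3 was -0.80. SESN1 was 1.58-fold higher (0.66 ± 0.07, limma adjusted p = 8.7e-06), and SESN3 differed by -0.11 ± 0.09 (limma adjusted p = 0.35). CHAC2 was 1.99-fold lower (-0.99 ± 0.08, limma adjusted p = 8.5e-07). The C/EBP factor CEBPB was 1.84-fold lower (-0.88 ± 0.06, limma adjusted p = 1.9e-07). ATF5, the nearest relative of ATF4, was 1.59-fold higher (0.67 ± 0.07, limma adjusted p = 4.9e-06) with 2 of its 4 probe sets called, and with their mean (0.26) it was not called.

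Other relatives were not called. PPP1R15B, the constitutive counterpart of PPP1R15A, differed by -0.40 ± 0.07 (limma adjusted p = 4.6e-04) and ASNSD1 by -0.36 ± 0.07 (limma adjusted p = 0.0012), both under the fold minimum. DDIT4L differed by -0.24 ± 0.08 (limma adjusted p = 0.024) and JDP2 by -0.22 ± 0.08 (limma adjusted p = 0.047), where the second JDP2 probe set had the opposite sign (0.32). BATF3 differed by -0.05 ± 0.08 (limma adjusted p = 0.66).

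**Figure D4:**
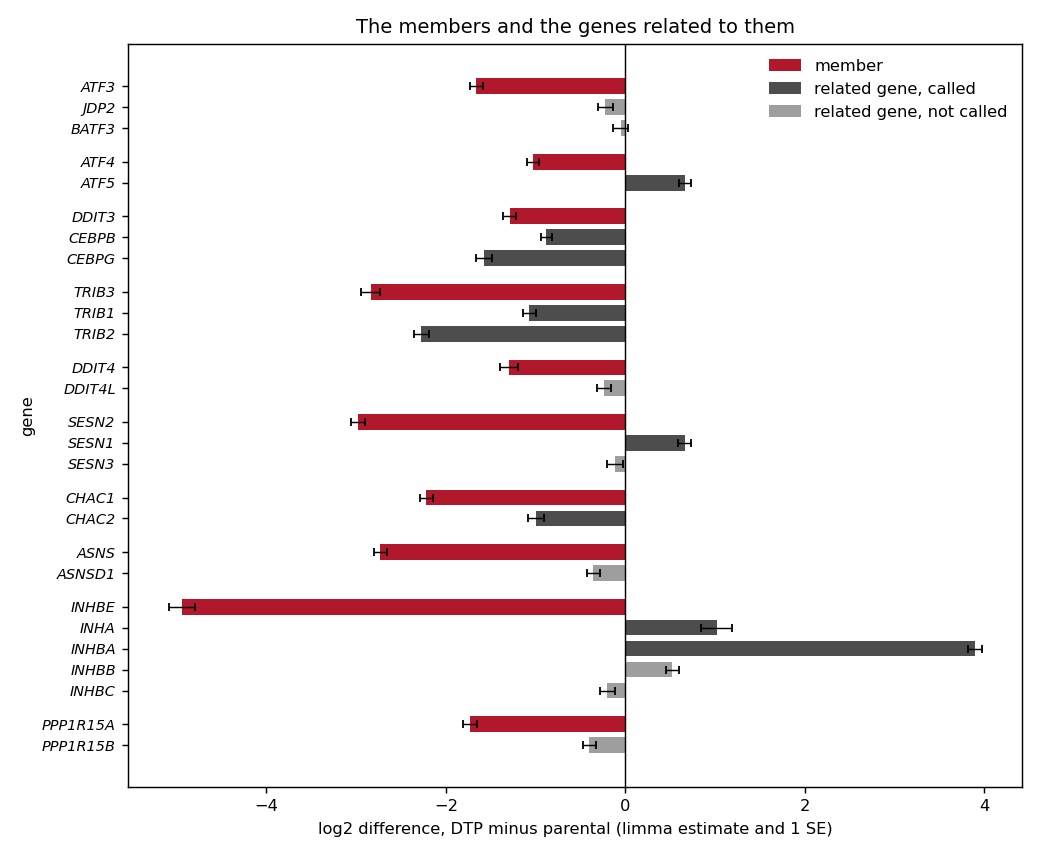
Log2 difference of DTP minus parental arrays (x axis, bars are limma estimates and lines 1 SE, 3 arrays per group) for the 10 members in red and their 17 relatives in grey (y axis), dark where called and light where not. Bars run from -4.94 for INHBE to 3.89 for INHBA.

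The arrays and their cells were checked by the same values. Array medians lay between 7.27 and 7.32, and Pearson's r across probe sets was 0.9968 to 0.9979 where both arrays were of the same group (6 pairs) and 0.9701 to 0.9754 where they were not (9 pairs). All 6 epithelial markers were above the median of all probe sets, with 1 called higher. Their summed log2 level was 16.45 to 16.54 in DTPs and 16.19 to 16.22 in parental cells. None of the 5 markers of lung adenocarcinoma was called. Of these, NKX2-1 was below that median in both groups and SFTPB in DTPs alone, while NAPSA, SFTPC and MUC1 were above it in both. Of fibroblast markers 1 of 5, COL1A1, was called higher and 3 were below the median, with sums of 11.22 to 11.49 in DTPs and 9.57 to 9.82 in parental cells. None of 4 leukocyte markers was called (9.06 to 9.27 in DTPs and 9.18 to 9.20 in parental cells). Of these, 2 were below the median in both groups, and CD3E was above it in both. Of 3 endothelial markers 1, PECAM1, was called lower (9.96 to 10.20 in DTPs and 10.44 to 10.65 in parental cells). All 3 were above the median in both groups, so a level above it does not by itself mark a cell type. As a sign of RNA quality, the 3′ minus 5′ log2 difference of the beta-actin control was 0.056 ± 0.028 in DTPs and 0.167 ± 0.025 in parental cells, and that of the GAPDH control was -0.175 ± 0.002 in DTPs and -0.152 ± 0.016 in parental cells (SD, n = 3 each). Both had an exact two-sided permutation p = 0.10, the smallest that 3 arrays against 3 allow. The part of these differences in the members' values was not tested.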

How the data were processed

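The deposited values are log2 expression values that the authors made by robust multi-array averaging (RMA, affy package, versions not given in the sources used here) with quantile normalization, from Affymetrix U133 Plus 2.0 arrays. RMA gives no detection call, and quantile normalization hides a change of total mRNA. Of 54675 probe sets, 62 controls were left out. An annotation table gave 1 gene for 41091 of the 54613 others, several for 1801 and none for 11721. Each gene was read by its brightest probe set on average, without suffix _x_at except in 419 genes that had no other. DTPs were compared with parental cells over all genes, and separately over all probe sets, using R 4.3.3 and limma 3.58.1 (moderated two-sided test from eBayes, Benjamini-Hochberg), after the methods' thresholds of 0.05 and 1.5-fold. The fits were tested on simulated data. With 3 arrays per group, the number of arrays limits the precision.

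Members and lists were chosen with earlier results of these data known, so adjusted p-values of listed genes are no independent support. Named were all members, up to 4 called genes of each list with the largest differences (or the 2 with the smallest p), all relatives, and the 5 genes nearest in profile. The 18 alternatives covered leaving out each array, a replicate block, centring on ribosomal protein genes or spike-ins, cyclic loess, a filter on dim probe sets, variance and weighting choices, thresholds, the methods' t-test and the choice of probe set. Promoters and gene symbols came from RefSeq.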

Additional observations from a re-analysis of the deposited data

How the results depend on the processing

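All 10 members were called lower under each of the 18 alternatives, and the number of member probe sets called lower was 14 in 15 of the 16 alternatives that gave it and 15 with the adjusted p alone. The members were selected on this difference in the same arrays, so these counts are a description and no independent support. Of all 19775 genes, the alternatives called between 431 (fold over 2) and 4754 (adjusted p alone) lower. Among the 122 other pathway genes, the 10 called higher became 5 at a fold over 2 and 22 with the adjusted p alone. No named gene that was called by the thresholds of fold and adjusted p changed sign under any of these alternatives. Of the named genes that were not called, IMPACT, DELE1, OMA1, EIF2AK3 and EIF2AK4 were not followed here. Of the others, BATF3 changed sign after centring on ribosomal protein genes (0.10) or spike-ins (0.13). It also did so without the third DTP array (0.03) and with array weights (0.02). SESN3 changed sign after the same centrings (0.04 and 0.06) and JDP2 with the mean of its probe sets (0.05).

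Replicate numbers did not pair the arrays: the correlations of deviations of same-numbered arrays were -0.12, 0.02 and -0.06. With the replicate block the counts were 10 members, 14 member probe sets, 49 other pathway genes lower and 10 higher, as without it.

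Without 1 array, INHBE lay between -5.12 and -4.77, ATF4 between -1.08 and -1.01, and DDIT4 between -1.41 and -1.19. Centring on 59 ribosomal protein genes or 18 spike-in probe sets moved the median of all genes to 0.10 or 0.13 from -0.05, and the members' median to -1.82 or -1.79. The genes called lower, 1212 by the thresholds above, were then 792 or 730, those called higher 2292 or 2437 against 1597, and the share of higher calls 74.3% or 76.9% against 56.9%. With the adjusted p alone 4754 genes were lower and 4043 higher (46.0% of calls higher), and at a fold over 2 these were 431 and 679.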

Other observations

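The motif TGATGNAA occurred in the promoter windows of 67 of 968 genes called lower in DTPs (6.92%) and of 556 of all 15384 measured genes with a window (3.61%). For TGACGTCA these shares were 3.20% and 3.10%, and for CACGTG 12.0% and 10.9%. The 968 genes include the 9 matched members, of which 3 held TGATGNAA, and the measured genes include the 968. The shares are a description and were not tested.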
